A study of Homo sapiens with 42 samples.

Results

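The genes described here are 10 genes of cell-cycle entry and arrest, taken by symbol from the 60609 genes counted in each library of 786-O cells: the D-type cyclins CCND1, CCND2 and CCND3, the transcription factor MYC with its network partners MAX, MXI1 and MXD4, and the CDK inhibitors CDKN1A, CDKN1B and CDKN1C. They were taken by name, with no filter on their values, and were chosen with earlier results of these data known. D cyclins activate CDK4 and CDK6, which phosphorylate RB and release E2F factors, and the CIP/KIP inhibitors p21, p27 and p57, encoded by CDKN1A, CDKN1B and CDKN1C, hold cyclin-CDK complexes in check. MYC binds DNA as a dimer with MAX and activates growth genes, whereas MXI1 and MXD4 compete for MAX and repress the same class of sites. In clear cell renal cell carcinoma, loss of VHL leaves HIF-α subunits undegraded, and CCND1 is known as a gene that HIF-2α raises in such cells.

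786-O is an established clear cell renal cell carcinoma line that lacks functional VHL and functional HIF-1α, so that every group carries these defects and endogenous HIF-2α. Polyadenylated RNA was sequenced in 2 batches with 3 libraries per group. Batch 1 held WT cells, a HIF-1β KIN line (clone A21) and a HIF-2α KIN line (clone A31), in which V5 and Halo tags were knocked in at the endogenous gene, and lines with an exogenous V5- and Halo-tagged HIF-1α, HIF-1α R30E, HIF-1αDM (R170A and V191D), HIF-2α, HIF-2α R27E or HIF-2αDM (R171A and V192D). R30E and R27E alter DNA binding and DM alters dimerization with HIF-1β. Batch 2 held WT, HIF-1α and HIF-2α lines and 2 chimeras, HIF-2α/1α (the structured N-terminal domains of HIF-2α with the C-terminal intrinsically disordered region, IDR, of HIF-1α) and the reverse, HIF-1α/2α. Each KIN line is 1 clone. The exogenous lines were integrated with PiggyBac, driven by the L30 promoter and selected with puromycin, and the unedited WT cells were not, so in comparisons with WT the selection and the transgene cannot be told apart.

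Total counts per library were 42377599 to 101186554 in batch 1 and 76366799 to 109642159 in batch 2, and levels are given in CPM (counts relative to library size, scaled by TMM within a batch), where 3 counts were worth 0.0313 to 0.0706 CPM in batch 1 and 0.0271 to 0.0399 CPM in batch 2. The transgene's transcript was highest where the labels place it. HIF1A was 3.44 to 3.83 CPM in WT and 41.5 to 48.3 CPM in the HIF-1α line of batch 1, and EPAS1, which encodes HIF-2α, was 187 to 247 CPM in WT and 605 to 774 CPM in the HIF-2α line. EPAS1 was also 312 to 386 CPM in the HIF-1α line and HIF1A 9.92 to 18.1 CPM in the HIF-2α line, and the part of these in the results was not tested. ARNT, which encodes HIF-1β, did not pass with either isoform in either batch (log2 fold changes -0.09 to 0.06). The HIF-2αDM libraries, whose genotype field names HIF-1α, had EPAS1 at 652 to 808 CPM and HIF1A at 2.7 to 3.12 CPM. The 6 renal epithelial and carcinoma markers checked were all expressed (summed group means 3687 to 4903 CPM), and 9 markers of blood, endothelial, stromal and liver cells summed to 0.0594 to 2.62 CPM in a group. With HIF-2α in batch 2, 5 of the 6 renal markers fell (KRT18 by 0.92, PAX2 by 0.97, KRT8 by 0.49, PAX8 by 0.48 and KRT19 by 0.47 on the log2 scale) and VIM rose by 0.45, against a background of 27.4% of all tested genes that passed. With HIF-1α in batch 2 PAX2 and PAX8 fell and VIM rose (-0.95, -0.23 and 0.21, background 17.2%), and in batch 1 PAX2 fell with HIF-1α (-1.08) and KRT18 with HIF-2α (-0.88). Of the other cell types' markers, LUM fell with HIF-2α in both batches (-4.53 and -3.52, adjusted p = 6.30e-05 and 3.65e-10). The part of these markers in the results was not tested. A gene passed the test at an adjusted p of at most 0.01 in edgeR (quasi-likelihood test, Benjamini-Hochberg over all tested genes), the test behind every adjusted p below. The methods call the libraries of a group biological replicates, and the labels do not say whether they came from separate cultures, so p-values measure the spread between these libraries.

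CCND1 was raised 3.14-fold and 2.74-fold by HIF-2α in the 2 batches and did not pass the test with HIF-1α in either. MXI1, CDKN1A and CDKN1C rose with both isoforms in both batches, and MXD4 rose with HIF-1α in both, a batch 1 call that was lost whichever WT or HIF-1α library was left out. With HIF-2α, MXD4 rose in batch 2 (0.90 on the log2 scale) and its value in batch 1 was 0.78, which did not pass. The rise of MXI1 was absent from the DNA-binding and dimerization mutants, whereas CDKN1A rose in all 4 mutants as well. MYC passed the test against WT once, falling by 0.38 on the log2 scale with HIF-2α in batch 2, and CDKN1B passed in no comparison. CCND2 was not detected in batch 1.

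In batch 1, 9 of the 10 genes could be tested. Against WT, 4 of the 9 passed with HIF-1α, all upwards (the background, 4.79%, is the share of all tested genes that passed in either direction), and 4 passed with HIF-2α, all upwards (background 7.99%). With HIF-1α R30E 3 passed, of which 2 rose and 1 fell (background 3.33%), and CDKN1A alone passed, upwards, with HIF-1αDM (background 0.474%), R27E (0.521%) and the dimerization mutant of HIF-2α (0.504%). In the HIF-2α KIN line 2 passed, 1 up and 1 down (background 5.89%). In the HIF-1β KIN line 0 of 9 passed by edgeR and 0 by DESeq2, with 1 at an unadjusted p under 0.05 by each (background 1.78%). In batch 2 all 10 were tested: 4 passed with HIF-1α (background 17.2%), 6 with HIF-2α/1α (16.7%) and 4 with HIF-1α/2α (27.8%), all upwards, and 7 with HIF-2α, of which 5 rose and 2 fell (27.4%). The median log2 fold change over the tested members was 0.14 with HIF-1α and 0.78 with HIF-2α in batch 1 against -0.03 and -0.09 over all tested genes, and 0.05 and 1.17 in batch 2 against 0.03 and 0.07. The batch 2 medians include CCND2, which was not tested in batch 1. Its values, -1.80 with HIF-1α and 2.59 with HIF-2α, rest on 0 and 7 counts against 1 in WT. The medians of the 2 batches are therefore over unlike sets of genes. All lines of a batch were set against the same 3 WT libraries, so these comparisons are not independent of each other.

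**Figure D1:**
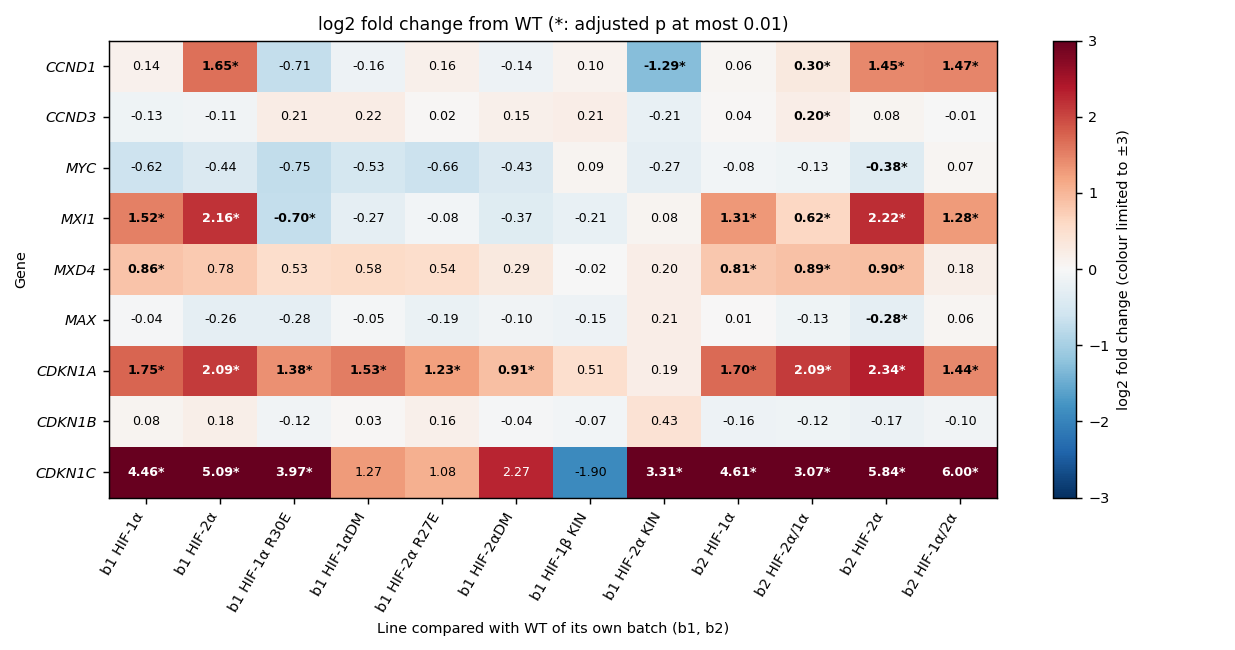
log2 fold change of 9 genes (rows) in each line against WT of its own batch (columns, b1 and b2), with the colour limited to 3 in either direction and an asterisk where the adjusted p was at most 0.01. CCND1 passed upwards with HIF-2α in both batches (1.65 and 1.45) and not with HIF-1α (0.14 and 0.06), and CDKN1A passed in all 10 columns with a transgene.

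Among the D cyclins, CCND1 followed HIF-2α. CCND1 encodes cyclin D1 and lies at chr11:69641156-69654474 (hg38, GENCODE v44, plus strand). In batch 1 its level was 388, 493 and 561 CPM in WT, 438, 529 and 616 CPM with HIF-1α and 1317, 1398 and 1817 CPM with HIF-2α. All 3 HIF-2α libraries lay above every other library of the batch. The HIF-1α and WT libraries overlapped, with each HIF-1α library above the WT library of the same replicate number. The increase with HIF-2α was log2 fold change 1.65, SE 0.22, adjusted p = 3.51e-06, and that with HIF-1α was 0.14 (95% CI -0.30 to 0.57, adjusted p = 0.813). The direct comparison of HIF-2α with HIF-1α gave a log2 difference of 1.52 (adjusted p = 3.04e-05), where CCND1 was the 1 member to pass (background 3.07%), against 2 (CCND1 and MXI1) with DESeq2 or with a replicate block.

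The mutants of HIF-2α left CCND1 near WT. Its level was 429.5, 493 and 691 CPM with R27E and 469, 394 and 442 CPM in the HIF-2αDM line, both overlapping WT. HIF-2α exceeded R27E by 1.49 (SE 0.22, adjusted p = 2.22e-05) and DM by 1.80 (SE 0.22, adjusted p = 1.51e-06) on the log2 scale. In these 2 comparisons 4 of 9 members passed in each, all higher with HIF-2α (CCND1, MXI1, CDKN1A and CDKN1C), against backgrounds of 4.99% and 5.43%.

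CCND1 also had its lowest level of the batch in a line with no transgene. In the HIF-2α KIN clone it was 203, 189 and 199 CPM, below every WT library, and it fell by 1.29 on the log2 scale (SE 0.22, adjusted p = 1.39e-04). EPAS1 was also lower in these 3 libraries, at 86.4, 100.4 and 89.2 CPM against 187, 213 and 247 CPM in WT, and its part in the CCND1 value was not tested. In the HIF-1β KIN clone CCND1 was 382, 478 and 685 CPM and did not pass. With HIF-1α R30E it was 301, 233 and 345 CPM, below every WT library, without passing (log2 fold change -0.71, adjusted p = 0.0459).

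In batch 2 CCND1 was highest in the lines with the HIF-2α IDR. Its level was 383, 386 and 365 CPM in WT, 390.5, 399 and 394 CPM with HIF-1α and 479, 459.8 and 459.6 CPM with HIF-2α/1α. It was 1048, 1062 and 997 CPM with HIF-2α and 1050.0, 1086 and 998 CPM with HIF-1α/2α. The 6 libraries carrying the HIF-2α IDR overlapped each other and lay far above the other 9. HIF-1α/2α raised CCND1 2.76-fold (log2 fold change 1.47, SE 0.05, adjusted p = 1.18e-28), HIF-2α/1α raised it 1.23-fold (adjusted p = 1.08e-06), and HIF-1α gave 0.06 on the log2 scale (95% CI -0.03 to 0.15, adjusted p = 0.407). The HIF-1α libraries lay above every WT library, by a difference that did not pass.

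**Figure D2:**
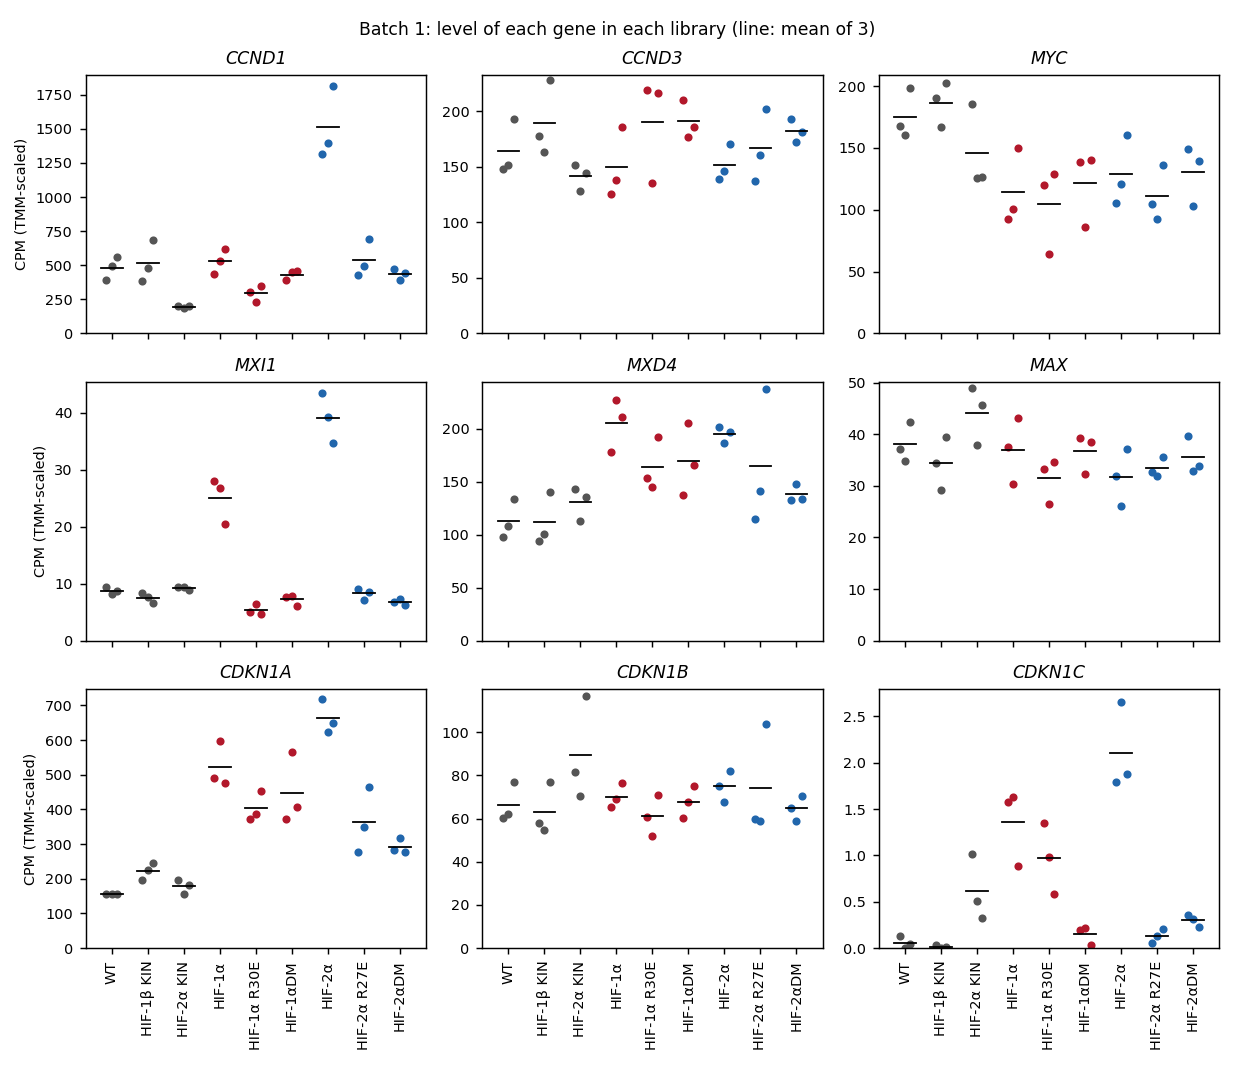
CPM of 9 genes (panels, linear axes from 0) in the 3 libraries of each batch 1 group (points, with the mean as a line), in grey for WT and KIN lines, red for HIF-1α forms and blue for HIF-2α forms. CCND1 stood at 1317 to 1817 CPM with HIF-2α and at 691 CPM or less in all other libraries, and MXI1 was raised with HIF-1α and HIF-2α but not with their mutants.

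CCND3 and CCND2 gave little. CCND3, which encodes cyclin D3, was 164 ± 24.8 CPM in WT (SD, n = 3), 149 ± 31.7 CPM with HIF-1α and 152 ± 16.5 CPM with HIF-2α of batch 1, with overlap between all 3 groups. It passed once, with HIF-2α/1α in batch 2 (123, 114 and 117 CPM against 101, 102 and 106 CPM in WT, log2 fold change 0.20, SE 0.06, adjusted p = 0.00603). That call was lost when HIF-2α/1α replicate 1 or 3 or WT replicate 1 or 2 was left out (adjusted p = 0.0526, 0.0138, 0.0316 and 0.0328). CCND2, which encodes cyclin D2, had 0 counts in all 27 libraries of batch 1, each of which allows up to 3 counts or 0.0706 CPM in the shallowest. In batch 2 its counts were 1, 0 and 0 in WT, 2, 2 and 3 with HIF-2α/1α, 4, 1 and 2 with HIF-2α and 0 in the 6 libraries of HIF-1α and HIF-1α/2α, too few for a fold. In GENCODE v44 CCND2 overlaps a protein-coding gene model on its own strand and 2 lncRNAs on the other, and reads over exons of more than 1 gene were counted for none. Per kilobase of annotated exon, WT cells of batch 1 held 101 CPM of CCND1, 28.4 CPM of CCND3 and 0 of CCND2, so CCND1 was above CCND3. The 0 of CCND2 cannot rank it, since reads over shared exons would be missing. These overlaps and exon lengths come from a later GENCODE release than the one used for counting.

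With HIF-1α or HIF-2α, the antagonists in the MYC network moved more than MYC. MXI1, a repressor that pairs with MAX, was 9.41, 8.14 and 8.7 CPM in WT of batch 1, 28, 26.8 and 20.5 CPM with HIF-1α and 43.4, 39.2 and 34.6 CPM with HIF-2α. The 3 groups did not overlap. MXI1 rose 2.87-fold with HIF-1α (log2 fold change 1.52, SE 0.17, adjusted p = 3.18e-07) and 4.47-fold with HIF-2α (log2 fold change 2.16, SE 0.17, adjusted p = 5.02e-10). HIF-2α lay above HIF-1α by 0.64 on the log2 scale without passing (adjusted p = 0.0158), and passed with the replicate number as a block, which takes the members that passed from 1 to 2 (adjusted p = 0.00185).

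All 4 mutants lacked the MXI1 rise. The levels were 4.98, 6.46 and 4.65 CPM with HIF-1α R30E, 7.7, 7.92 and 6.11 CPM with HIF-1αDM, 9.14, 7.2 and 8.56 CPM with R27E and 6.84, 7.35 and 6.18 CPM in the HIF-2αDM line. HIF-1α exceeded R30E 4.67-fold (adjusted p = 9.58e-10), where MXI1 was the 1 of 9 members to pass (background 2.18%). CCND1 had a log2 difference of 0.85 there (adjusted p = 0.0189) and passed as well, making 2, with DESeq2, no filter, total counted reads or the replicate block. HIF-1α exceeded HIF-1αDM 3.46-fold (adjusted p = 6.69e-08), where MXI1 and CDKN1C passed (background 1.6%). MXI1 with HIF-2α was 4.71 times its R27E level and 5.76 times its DM level (adjusted p = 5.71e-10 and 5.68e-11). With R30E, MXI1 lay below every WT library and fell by 0.70 on the log2 scale (adjusted p = 0.0075), a call that held in 1 of 6 fits that left out a library (without R30E replicate 2) and was lost without R30E replicate 1 or 3 or any 1 WT library (adjusted p from 0.0162 to 0.068).

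In batch 2 MXI1 rose in all 4 lines, most with HIF-2α. It was 13.1, 12.6 and 14.6 CPM in WT, 35.4, 35.8 and 28.8 CPM with HIF-1α and 66.5, 66.5 and 54.5 CPM with HIF-2α. The chimeras gave 20.7, 22.4 and 18.7 CPM with HIF-2α/1α and 36.2, 33.9 and 28 CPM with HIF-1α/2α, the latter overlapping HIF-1α and the former below both natural isoforms. All 4 lines passed against WT, with log2 fold changes of 0.62 for HIF-2α/1α, 1.28 for HIF-1α/2α, 1.31 for HIF-1α and 2.22 for HIF-2α (SE 0.09 in each, adjusted p = 4.48e-07, 2.44e-16, 3.18e-16 and 1.79e-24).

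MXI1 lies at chr10:110207605-110287365 and has 3 promoter windows in RefSeq (GRCh38.p14), and MXD4 at chr4:2247432-2262109 has 1. HIF dimers bind a core that reads ACGTG or GCGTG, and MYC-MAX and MXD-MAX dimers bind the E-box CACGTG, which contains the first HIF core on each strand. The windows are shown because both genes moved with HIF, from 250 to 11 bases before the start, on the gene's strand, with matches to either HIF core on either strand in capitals. Of all 35116 such windows 41.9% hold a HIF core and 6.01% hold CACGTG. The first MXI1 window (chr10:110207355-110207594) holds neither. The second (chr10:110209981-110210220, plus strand) holds 2 HIF cores, the third (chr10:110225746-110225985, plus strand) holds 1, and the MXD4 window (chr4:2262120-2262359, minus strand) holds 1 CACGTG, which counts as 2 overlapping cores. These are letter matches and not tested sites.
MXI1 window 2: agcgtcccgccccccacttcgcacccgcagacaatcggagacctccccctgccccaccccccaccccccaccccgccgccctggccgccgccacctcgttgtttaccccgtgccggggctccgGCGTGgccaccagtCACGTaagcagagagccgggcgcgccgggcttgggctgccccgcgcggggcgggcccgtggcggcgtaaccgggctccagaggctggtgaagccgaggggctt
MXI1 window 3: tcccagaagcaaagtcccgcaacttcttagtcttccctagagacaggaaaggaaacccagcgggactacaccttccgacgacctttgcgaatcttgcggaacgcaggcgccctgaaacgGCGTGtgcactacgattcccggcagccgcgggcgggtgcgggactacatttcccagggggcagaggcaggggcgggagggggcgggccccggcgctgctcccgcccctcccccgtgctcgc
MXD4 window: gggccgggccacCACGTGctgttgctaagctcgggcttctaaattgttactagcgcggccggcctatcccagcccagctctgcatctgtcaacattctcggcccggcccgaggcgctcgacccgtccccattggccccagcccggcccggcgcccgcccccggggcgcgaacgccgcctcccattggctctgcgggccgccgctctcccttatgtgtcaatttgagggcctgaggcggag

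MXD4, another MAX-binding repressor, moved less and in a different order. In batch 1 it was 97.7, 108 and 134 CPM in WT, 178, 227 and 211 CPM with HIF-1α and 202, 187 and 197 CPM with HIF-2α, the last overlapping HIF-1α and not WT. It rose 1.81-fold with HIF-1α (adjusted p = 0.00954), a call lost in each of the 6 fits that left out 1 HIF-1α or WT library (adjusted p 0.0108 to 0.066). With HIF-2α the log2 fold change was 0.78 (adjusted p = 0.0127), just short of the threshold and past it with DESeq2 (adjusted p = 0.00181). The mutants lay between, from 0.29 for HIF-2αDM to 0.58 for HIF-1αDM, and none passed against WT or differed from its parent form at the threshold.

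Batch 2 measured MXD4 more tightly. It was 57.1, 53.5 and 60.8 CPM in WT, 106, 101 and 92.5 CPM with HIF-1α, 115, 105 and 96.9 CPM with HIF-2α/1α and 116, 105 and 98.1 CPM with HIF-2α, and 61.2, 66.1 and 66.7 CPM with HIF-1α/2α. The first 3 of these lines overlapped each other and lay above WT and HIF-1α/2α. The log2 fold changes were 0.81, 0.89 and 0.90 (adjusted p = 8.92e-14, 6.02e-15 and 1.29e-15), against 0.18 (95% CI 0.05 to 0.31, adjusted p = 0.0297) for HIF-1α/2α.

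**Figure D3:**
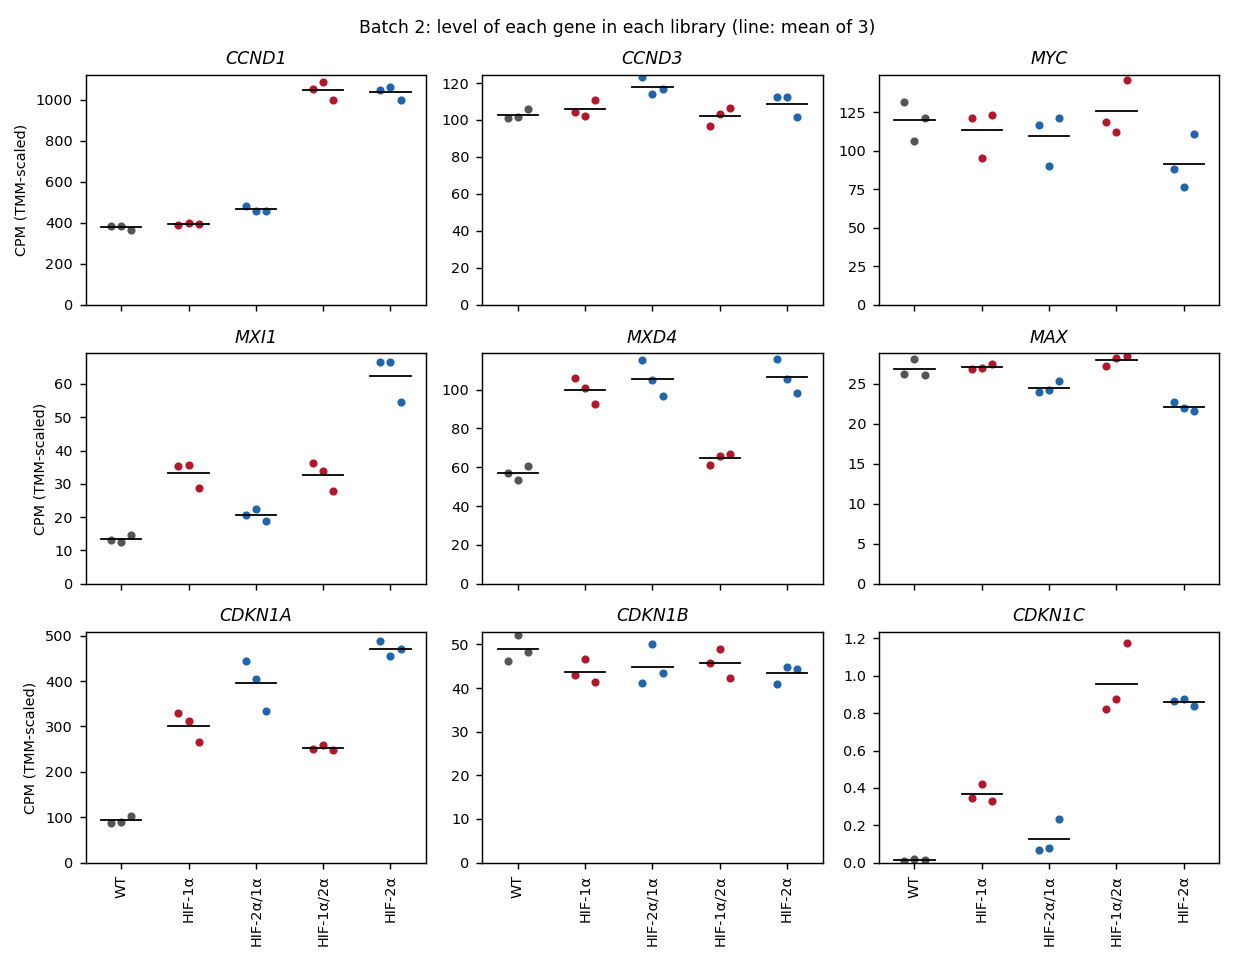
CPM of 9 genes (panels, linear axes from 0) in the 3 libraries of each batch 2 group (points, with the mean as a line), in grey for WT, red for lines with the structured domains of HIF-1α and blue for those with the structured domains of HIF-2α. CCND1 was at 997 to 1086 CPM in both lines with the HIF-2α IDR and at 365 to 479 CPM in the rest, whereas MXD4 was low only in WT and HIF-1α/2α.

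MYC itself was 167, 160.2 and 199 CPM in WT of batch 1, 92.6, 100.4 and 149.9 CPM with HIF-1α and 106, 121 and 161 CPM with HIF-2α. Each HIF-1α library lay below every WT library, as did each library of R30E, HIF-1αDM, R27E and HIF-2αDM, and 1 HIF-2α library overlapped WT. All 6 transgene lines had a lower mean than WT (log2 fold changes -0.43 to -0.75) and none passed (lowest adjusted p = 0.0861, for R30E). In batch 2 MYC was 132, 106 and 121 CPM in WT, 122, 95.6 and 123 CPM with HIF-1α and 88, 76.7 and 111 CPM with HIF-2α, which overlapped WT. It fell by 0.38 on the log2 scale with HIF-2α (SE 0.10, adjusted p = 0.00144), a call lost without HIF-2α replicate 2 (adjusted p = 0.0361), without WT replicate 1 (adjusted p = 0.0262) and with DESeq2 (adjusted p = 0.0744).

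MAX, the shared partner, was nearly flat. It was 26.2, 28 and 26.1 CPM in WT of batch 2 and 22.7, 21.9 and 21.6 CPM with HIF-2α, with no overlap, and fell by 0.28 on the log2 scale (SE 0.07, adjusted p = 5.79e-04). The other 3 lines of batch 2 ranged from -0.13 for HIF-2α/1α to 0.06 for HIF-1α/2α without passing. In batch 1 MAX passed in no line, with -0.26 (95% CI -0.60 to 0.07) for HIF-2α.

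Among the CDK inhibitors, CDKN1A rose in every transgene line. CDKN1A encodes p21 and lies at chr6:36676460-36687337. In batch 1 it was 155, 156 and 155 CPM in WT, 491, 598 and 476 CPM with HIF-1α and 718, 622 and 649 CPM with HIF-2α. The 3 groups did not overlap. It rose 3.35-fold with HIF-1α (log2 fold change 1.75, SE 0.18, adjusted p = 1.63e-07) and 4.26-fold with HIF-2α (log2 fold change 2.09, SE 0.19, adjusted p = 4.76e-09), and the log2 difference between the isoforms, 0.35, did not pass (95% CI -0.02 to 0.71, adjusted p = 0.366).

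The mutants kept much of the CDKN1A increase. It was 373, 387 and 453 CPM with HIF-1α R30E, 372, 566 and 407 CPM with HIF-1αDM, 278, 349.9 and 466 CPM with R27E and 282, 316 and 277 CPM in the HIF-2αDM line, each above every WT library. The log2 fold changes were 1.38, 1.53, 1.23 and 0.91 (adjusted p = 8.70e-06, 1.11e-05, 2.17e-04 and 0.00682). The HIF-2αDM call was lost in each of 6 fits that left out 1 HIF-2αDM or WT library (adjusted p 0.0195 to 0.0488), and the R27E call when only R27E and WT were fitted (adjusted p = 0.0764).

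Set against its own mutants, HIF-2α raised CDKN1A further and HIF-1α did not pass. HIF-2α exceeded R27E by 0.86 on the log2 scale (adjusted p = 0.00182, and 0.0129 and 0.0172 without HIF-2α replicate 1 or R27E replicate 1) and HIF-2αDM by 1.19 (adjusted p = 3.84e-05). HIF-1α minus R30E was 0.37 (adjusted p = 0.366) and HIF-1α minus HIF-1αDM was 0.22 (95% CI -0.15 to 0.59). In the KIN clones, which carry no transgene, CDKN1A was 196, 224 and 246 CPM with HIF-1β KIN and 196, 155 and 182 CPM with HIF-2α KIN, and neither passed.

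In batch 2 the 5 groups formed an order in CDKN1A with no overlap between neighbours. From low to high it was 86.6, 88.9 and 103 CPM in WT, 249, 259 and 249 CPM with HIF-1α/2α, 329, 311 and 265 CPM with HIF-1α, 445, 406 and 334 CPM with HIF-2α/1α and 487, 456 and 471 CPM with HIF-2α. The log2 fold changes from WT were 1.44, 1.70, 2.09 and 2.34 (SE 0.07 in each, highest adjusted p = 1.80e-21). The 2 highest lines were the ones with the structured domains of HIF-2α.

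CDKN1B, which encodes p27, did not pass in any comparison. It was 60.3, 62.1 and 76.7 CPM in WT, 65.5, 68.9 and 76.3 CPM with HIF-1α and 75.3, 67.5 and 82.2 CPM with HIF-2α of batch 1, and 46.2, 52.2 and 48.2 CPM, 43.1, 46.7 and 41.4 CPM and 40.9, 44.8 and 44.4 CPM in batch 2. The groups of batch 1 overlapped, and in batch 2 the HIF-2α libraries lay below WT. Its log2 fold changes in the 4 lines of batch 2 ran from -0.17 for HIF-2α (95% CI -0.31 to -0.03) to -0.10 for HIF-1α/2α. Its promoter window (chr12:12717118-12717357, plus strand) and that of CDKN1A (chr6:36678464-36678703, plus strand) are shown as a gene that did not pass beside one that did. Each holds 1 HIF core (in capitals, on the reverse strand) and no CACGTG. The pair therefore has the same number of letter matches.
CDKN1A window: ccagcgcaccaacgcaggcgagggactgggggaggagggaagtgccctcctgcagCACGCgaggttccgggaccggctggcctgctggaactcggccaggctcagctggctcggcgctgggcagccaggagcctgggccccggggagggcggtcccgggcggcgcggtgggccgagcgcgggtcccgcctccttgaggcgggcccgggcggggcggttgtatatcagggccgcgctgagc
CDKN1B window: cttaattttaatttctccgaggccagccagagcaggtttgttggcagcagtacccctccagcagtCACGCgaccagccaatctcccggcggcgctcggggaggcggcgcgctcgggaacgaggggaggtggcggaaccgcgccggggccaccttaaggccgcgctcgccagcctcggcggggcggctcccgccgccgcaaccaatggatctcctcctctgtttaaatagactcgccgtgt

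CDKN1C, which encodes p57, was rare in WT and rose with both isoforms. Its counts in batch 1 were 11, 0 and 4 in WT, 112, 79 and 65 with HIF-1α and 76, 121 and 119 with HIF-2α. The ratio of summed counts, scaled for depth, was 21.8-fold (12.9 to 39.4) for HIF-1α and 34.3-fold (20.5 to 62.1) for HIF-2α, where the ranges are 95% intervals for counting error only. WT replicate 1 held 11 of the 15 WT counts, and without it the ratios were 54.6-fold (21.1 to 202) and 86.2-fold (33.3 to 318). Both passed with all libraries (adjusted p = 9.07e-05 and 1.07e-05). R30E also rose (67, 66 and 46 counts, 15-fold (8.88 to 27.5) and 37.8-fold (14.5 to 140.3) without WT replicate 1, adjusted p = 4.54e-04), whereas HIF-1αDM (13, 15 and 3 counts), R27E (4, 9 and 14) and the HIF-2αDM line (21, 20 and 22) did not pass.

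Against their mutants, HIF-2α exceeded R27E in CDKN1C 16.3-fold (11 to 25.1) (adjusted p = 1.65e-04) and HIF-2αDM 7.24-fold (5.51 to 9.65) (adjusted p = 0.00308, and 0.014 to 0.0253 without HIF-2α replicate 2 or any 1 HIF-2αDM library). HIF-1α exceeded HIF-1αDM 9.25-fold (6.36 to 13.9) (adjusted p = 0.00376, lost in 5 of 6 fits that left out a library and kept without HIF-1α replicate 3, with the 5 between 0.0112 and 0.0356), and the difference from R30E did not pass. The HIF-2α KIN clone had 52, 24 and 26 counts and passed (adjusted p = 0.00204), but not without HIF-2α KIN replicate 1 (0.0206), WT replicate 2 (0.0132) or WT replicate 3 (0.018).

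In batch 2 the CDKN1C counts were 1, 2 and 1 in WT, 5, 8 and 19 with HIF-2α/1α, 32, 39 and 31 with HIF-1α, 78, 68 and 64 with HIF-2α and 89, 66 and 97 with HIF-1α/2α. HIF-2α and HIF-1α/2α overlapped in CPM and lay above the others. The ratios to WT were 26.7-fold (10.1 to 99.9) for HIF-1α and 63-fold (24.2 to 233) for HIF-2α, wide because WT held 4 counts in all. All 4 lines passed (adjusted p = 2.57e-04 for HIF-2α/1α, and 0.0161 without its replicate 3). In these cell populations, more cells with the transcript and more transcript per cell cannot be told apart, here as for the other genes.

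The direct comparison of HIF-2α with HIF-1α in batch 2 asked how the isoforms differ with tighter replicates. Of the 10 members, 4 were higher with HIF-2α (CCND1 by 1.39, CDKN1C by 1.23, MXI1 by 0.91 and CDKN1A by 0.64 on the log2 scale) and MAX was lower (-0.29), against a background of 17.6%. The adjusted p was 2.53e-27 for CCND1, 8.31e-12 for MXI1, 3.51e-10 for CDKN1A, 5.14e-04 for MAX and 0.00543 for CDKN1C. The CDKN1C call was lost in each of 6 fits that left out 1 library (0.0112 to 0.0283). MYC was lower with HIF-2α by a value that missed the threshold (-0.31, 95% CI -0.50 to -0.11, adjusted p = 0.0173). No member was past the threshold in opposite directions against WT in the HIF-1α and HIF-2α lines of either batch.

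The domain swaps were then read as 2 averaged effects, HIF-2α against HIF-1α IDR over both sets of structured domains, and HIF-2α against HIF-1α structured domains over both IDRs. Each form was read in its own line, and HIF1A and EPAS1 levels differed between lines. Mean HIF1A was 147 CPM with HIF-1α, 107 CPM with HIF-2α/1α and 109 CPM with HIF-1α/2α. Mean EPAS1 was 475 CPM with HIF-2α, 574 CPM with HIF-1α/2α and 232 CPM with HIF-2α/1α. Each chimera carries only part of the coding sequence of each gene, and the counts also include endogenous transcript. These levels therefore do not compare directly between a chimera and a natural form, and do not rank the transgenes. Domain, line and transgene level therefore cannot be told apart in these effects. The IDR effect passed for 4 of 10 members (background 24.7%): the HIF-2α IDR gave more CCND1 (1.28, adjusted p = 4.16e-32), CDKN1C (2.08, 7.72e-09) and MXI1 (0.79, 1.22e-14) and less MXD4 (-0.31, 3.74e-07). The averaged IDR effect on CDKN1A did not pass (95% CI -0.10 to 0.10). The structured-domain effect passed for 5 (background 11.4%): the structured domains of HIF-2α gave more CDKN1A (0.65, adjusted p = 4.44e-14), MXD4 (0.40, 4.47e-09) and CCND1 (0.11, 0.00893) and less MAX (-0.24, 1.14e-04) and MYC (-0.25, 0.00684).

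Calls of the structured-domain effect on CCND1 and MYC were lost in several fits that left out 1 library. CCND1 was lost in 8 of 12 fits that left out a library (adjusted p 0.0104 to 0.0323: any 1 HIF-1α library, HIF-1α/2α replicate 3, HIF-2α replicate 1 or 2, HIF-2α/1α replicate 1 or 3). MYC was lost in 6 of 12 (0.0194 to 0.0402: HIF-1α replicate 1 or 3, HIF-1α/2α replicate 3, HIF-2α replicate 1 or 2, HIF-2α/1α replicate 2) and with DESeq2 (0.154), so that the count of 5 became 3 without HIF-1α replicate 1 or 3 or HIF-2α replicate 1 or 2. Without HIF-1α/2α replicate 3 the count was 4, since CCND3 then passed. CDKN1A, MXD4 and MAX passed in all 12.

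The interaction asks whether the IDR difference depended on the structured domains, and 4 of 10 members passed (background 5.37%). For MXI1 the HIF-2α IDR added more on the structured domains of HIF-2α than on those of HIF-1α, by 1.63 on the log2 scale (95% CI 1.38 to 1.87, adjusted p = 1.29e-13). The IDR difference of MXI1 was 1.60 (95% CI 1.42 to 1.78) on the structured domains of HIF-2α (HIF-2α minus HIF-2α/1α) and -0.03 (95% CI -0.20 to 0.15) on those of HIF-1α (HIF-1α/2α minus HIF-1α), in a comparison added after the data were seen. That of CDKN1A had opposite signs, 0.26 (95% CI 0.12 to 0.40) and -0.26 (95% CI -0.40 to -0.12), and that of MXD4 was 0.01 (95% CI -0.12 to 0.14) and -0.63 (95% CI -0.76 to -0.50). For CCND1 it was 1.15 (SE 0.05) and 1.41 (SE 0.05). In the interaction, MXD4 (0.64, adjusted p = 1.90e-06) and CDKN1A (0.51, adjusted p = 2.41e-04) had the same sign as MXI1. CCND1 had the opposite one (-0.25, adjusted p = 0.00638), a call lost in 7 of 12 fits that left out a library (any 1 HIF-1α library, HIF-1α/2α replicate 2, HIF-2α replicate 1 or 3, HIF-2α/1α replicate 1, adjusted p 0.0101 to 0.0319).

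**Figure D4:**
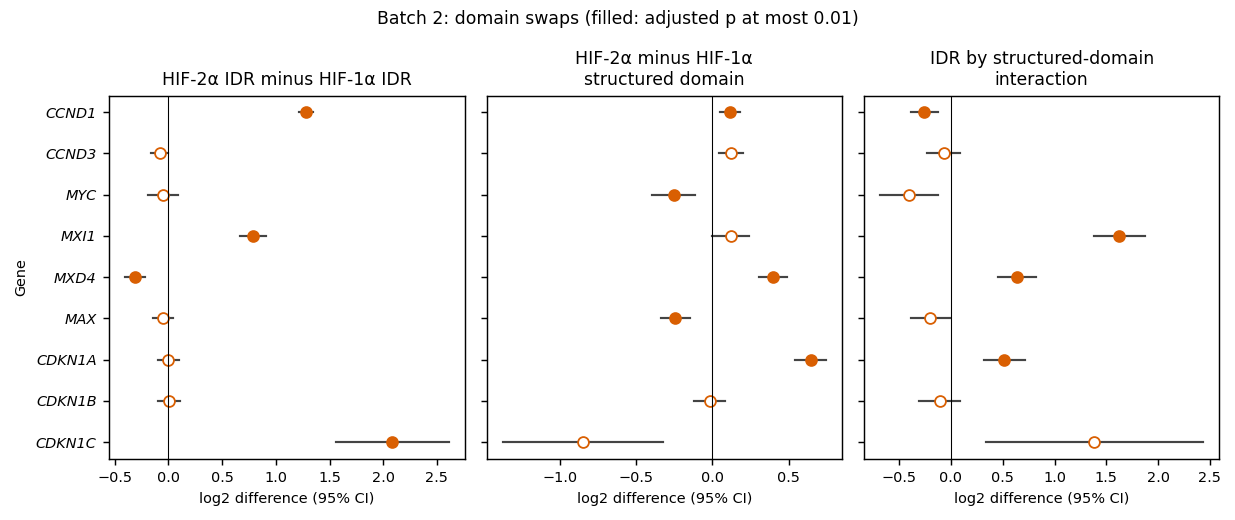
log2 difference with its 95% confidence interval for 9 genes (rows) in batch 2: HIF-2α minus HIF-1α IDR (left), HIF-2α minus HIF-1α structured domains (middle) and their interaction (right), filled where the adjusted p was at most 0.01. CCND1 sat at 1.28 in the left panel and 0.11 in the middle one, and CDKN1A at 0.65 in the middle panel, with an interval from -0.10 to 0.10 in the left one.

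Whether the HIF effect differed between batches was tested in 1 fit over the WT libraries and those of both isoforms. For HIF-1α 0 of 9 members passed by edgeR and 0 by DESeq2 (1 and 0 at an unadjusted p under 0.05), and for HIF-2α 0 and 0 (1 and 1), with 0% of all genes passing in each by edgeR. HIF1A did not pass either. Its mean with HIF-1α and in WT was 45.2 and 3.6 CPM in batch 1 and 147 and 3.27 CPM in batch 2. The lack of calls therefore does not show equal effects, and the part of the transgene level was not tested. For CCND1 the batch 2 minus batch 1 difference of the HIF-2α effect was -0.35 (95% CI -0.78 to 0.09) and for MXI1 -0.09 (95% CI -0.48 to 0.30), so differences within these intervals remain possible. Levels in WT also differed between batches, CDKN1A being 156 ± 0.701 CPM (SD, n = 3) in batch 1 and 93 ± 9.05 CPM in batch 2, and extraction, library kit and batch cannot be told apart. Libraries of a group spread more in batch 1: for CCND1 the SE of the HIF-2α effect was 0.22 in batch 1 and 0.05 in batch 2.

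Over the 14 group means of both batches, centred within a batch, CDKN1A and MXD4 were the members most alike (Pearson r = 0.909), MXI1 correlated with CCND1 (0.723) and CDKN1C (0.695), and MYC ran opposite to MXD4 (-0.736). These are descriptions over groups that share WT and library preparation. Among 12461 other genes with a mean normalised count of at least 50, the patterns most like CCND1 were those of SH3GL1 (0.993) and ACKR3 (0.982). Those most like MXI1 were KISS1R (0.954) and AL022328.4 (0.945), like MXD4 P2RX6 (0.954) and RASD2 (0.953), like CDKN1A HIST1H1C (0.964) and ROM1 (0.959), and like CDKN1C ANTXR1 (0.962) and APBB1 (0.954). For the members that moved little the best matches were weaker. They were ANKRD27 (0.915) and EIF3L (0.878) for MYC, CIPC (0.923) and CCNK (0.884) for MAX, and N6AMT1 (0.928) and ADRM1 (0.916) for CCND3. CDKN1B was most like ALDH6A1 (0.880, and 0.371 over the batch 2 groups alone) and CTDSP2 (0.872 and 0.635). CCND2 had 0 counts in batch 1 and at most 4 in a library of batch 2, too few for a pattern. Its highest r, with AK1 (0.801) and CARMIL2 (0.785), therefore rest on those few counts.

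Around the members, gene lists of the same pathways were counted. Of 12 MYC-activated genes of ribosome biogenesis and nucleotide synthesis, 10 fell and 0 rose with HIF-2α in batch 2 (background 27.4% of all tested genes passing) and 7 fell with HIF-1α (background 17.2%, list medians -0.46 and -0.22 against 0.07 and 0.03 over all tested genes). In batch 1 the medians were -0.57 with HIF-2α and -0.43 with HIF-1α, but 0 of 12 passed in either by edgeR, with 7 and 4 at an unadjusted p under 0.05 (backgrounds 7.99% and 4.79%). Over 13 settings the number that fell in batch 1 was 0 to 4 with HIF-2α and 0 to 2 with HIF-1α, and by DESeq2 it was 0 and 2. Of 14 S-phase genes, 7 fell with HIF-2α and 6 with HIF-1α in batch 2 (backgrounds 27.4% and 17.2%, medians -0.14 and -0.14). Over the settings these counts were 4 to 9 and 4 to 7. In batch 1 the counts were 1 and 0 (0 to 2 and 0 to 3 over the settings, backgrounds 7.99% and 4.79%). Of 14 G1 kinase, cyclin E and RB-E2F genes, 2 rose and 7 fell with HIF-2α in batch 2 (background 27.4%). With HIF-1α 2 fell (1 to 5 over the settings, background 17.2%), a share near the background and no result about the list. In batch 1, 0 passed with either isoform by edgeR or DESeq2 (1 and 2 at an unadjusted p under 0.05).

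Of the other MAX and MLX network genes, MYCL, a MYC paralogue, rose with HIF-1α in both batches (log2 fold change 1.82, adjusted p = 4.66e-04, and 1.21, 0.00101), and MXD3, a MAX-binding repressor, rose with HIF-2α in both (1.06, 0.00789, and 1.21, 9.81e-19). By edgeR, 1 gene of that list rose and 0 fell with each isoform in batch 1 (backgrounds 4.79% and 7.99%). In batch 2, 1 rose and 1 fell with HIF-1α (background 17.2%), and 3 rose and 2 fell with HIF-2α (background 27.4%). The list's count of rising genes was 0 to 2 over 13 settings with HIF-2α in batch 1 and with HIF-1α in batch 2. Of the 4 INK4 inhibitors, which block CDK4 and CDK6, CDKN2C and CDKN2D were the 2 tested in batch 1. Both rose with HIF-2α in batch 1 (0.85 and 0.61, background 7.99%) and in batch 2 (0.67 and 0.58, background 27.4%). Neither passed with HIF-1α. The batch 1 count with HIF-2α was 0 to 2 over 13 settings and moved from 2 in 8 of them. The names CDKN2C and CDKN2D were chosen after their values were seen. Of 10 p53-activated genes, a pathway known to raise CDKN1A, 1 rose with each isoform in batch 1 (0 to 3 over 13 settings with HIF-1α and 1 to 3 with HIF-2α, near the backgrounds of 4.79% and 7.99%). In batch 2, 5 rose with each isoform, while 2 fell with HIF-1α and 1 with HIF-2α (backgrounds 17.2% and 27.4%). RRM2B of that list was raised over 2-fold by HIF-2α in both batches (1.05 and 1.08). Of 10 shared HIF targets, 8 rose with each isoform in batch 1, and 10 with HIF-1α and 8 with HIF-2α in batch 2, where 1 fell with HIF-2α (backgrounds 4.79% and 7.99% in batch 1, 17.2% and 27.4% in batch 2). CA9, which encodes carbonic anhydrase IX, rose with both isoforms in both batches. In batch 2 it was 0 in all WT libraries, 23.4, 23.6 and 21.6 CPM with HIF-1α and 0.111, 0.0645 and 0.0786 CPM with HIF-2α, and in batch 1 0, 0.0432 and 0 CPM in WT, 63.7, 68.5 and 57.6 CPM with HIF-1α and 0.611, 0.088 and 0.269 CPM with HIF-2α. With HIF-1α, BNIP3 rose by 2.72 and 2.54 on the log2 scale in the 2 batches, ANKRD37 by 1.95 and 1.97 and NDRG1 by 1.36 and 1.11. With HIF-2α, NDRG1 rose by 3.92 and 3.96, EGLN3, a HIF prolyl hydroxylase, by 3.43 and 3.30, and VEGFA, an angiogenic growth factor, by 2.18 and 2.39. BNIP3 was the target that fell with HIF-2α in batch 2, by 0.36.

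**Figure D5:**
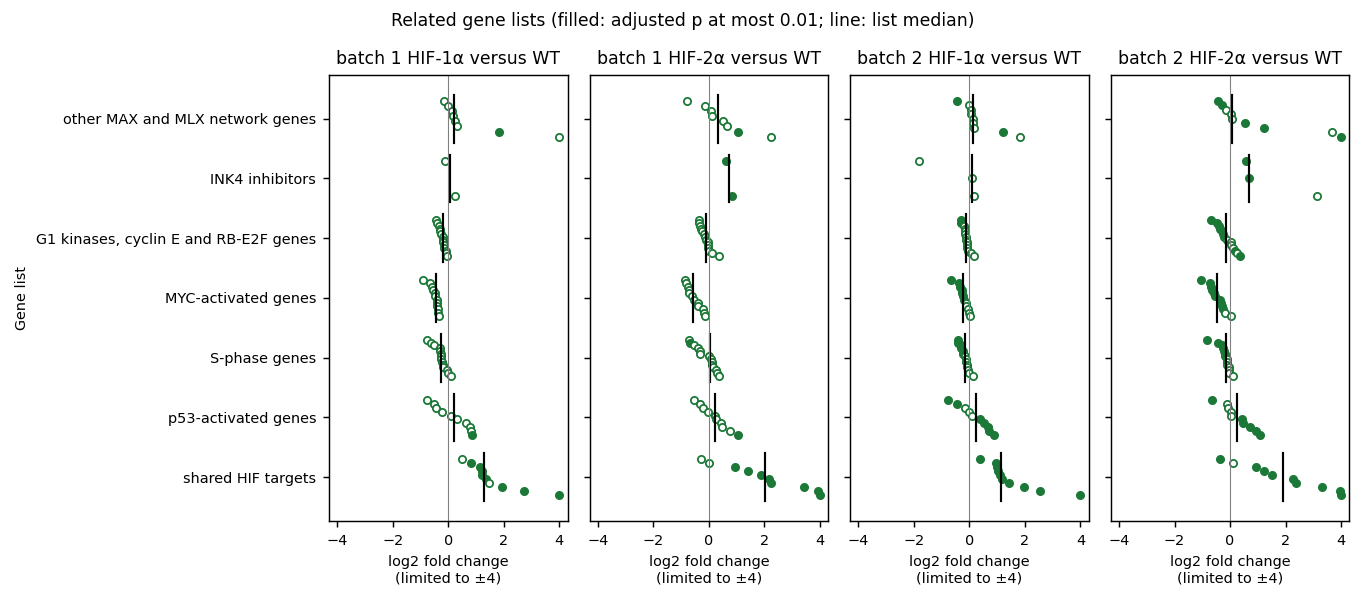
log2 fold change of each tested gene (points, limited to 4 in either direction) of 7 related lists (rows) with HIF-1α and HIF-2α against WT in each batch (panels), filled where the adjusted p was at most 0.01, with the list median as a line. The MYC-activated genes lay mostly below 0 in all 4 panels and none passed in batch 1, and the shared HIF targets lay mostly above 0.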

How the data were processed

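The authors sequenced polyadenylated RNA of 786-O cells, from RNeasy extracts in batch 1 and TRIzol extracts in batch 2. The authors aligned reads to hg38 with STAR and deposited counts per gene, made with HTSeq from uniquely mapped reads without strand (STAR 2.7 and HTSeq 0.11.1 in the submitters' processing notes). Reads over exons of more than 1 gene were counted for none (union mode), and without strand this includes antisense partners such as CASC11 at MYC.

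The members and lists were chosen with earlier results of these data known. Genes with a mean normalised count of at least 0.5 in a batch were tested (23410 and 28724), with TMM scaling and edgeR 4.0.16's quasi-likelihood test (R 4.3.3, limma 3.58.1) on the deposited counts, all groups of a batch in 1 fit, and Benjamini-Hochberg adjustment over all tested genes. The SE of a fold change was the size of its log2 value divided by the square root of the quasi-likelihood F. Intervals of fold changes come from that SE, and those of count ratios cover counting error only. Total counts per library, 42377599 to 109642159, set the precision. Named genes were all 10 members, and those of related lists that were called (adjusted p at most 0.01 and 2-fold) in the same direction in both batches of a line, at most 4 per list by size, with HIF1A, EPAS1 and ARNT. CDKN2C, CDKN2D, MYCN and the renal markers were named outside this rule after their values were seen. The scripts were tested on simulated data.

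Replicate numbers were checked for pairing by the correlation of same-numbered libraries' deviations from their group means. In batch 1 every pair was over 0.1 in 7 of 13 comparisons (mean r 0.244), and in batch 2 in 0 of 5 (mean r 0.005). Alternatives were DESeq2 1.42.0, RLE scaling, total counted reads, no filter, a replicate block, the compared groups alone and leaving out each library.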

Additional observations from a re-analysis of the deposited data

Results flagged for a closer look

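In 4 genes the effect of exchanging the HIF-1α IDR for that of HIF-2α differed between the structured domains of HIF-1α and HIF-2α by edgeR's test of the difference itself. The difference was 1.63 on the log2 scale for MXI1 (adjusted p = 1.29e-13), 0.64 for MXD4 (adjusted p = 1.90e-06), 0.51 for CDKN1A (adjusted p = 2.41e-04) and -0.25 for CCND1 (adjusted p = 0.00638). The first 3 passed in all 12 fits that left out a library.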

How the results depend on the processing

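No member changed direction past the threshold in any alternative. The number of members that passed moved by over 1.5 times as follows. With the replicate number as a block, R30E against WT gave 5 in place of 3, HIF-1α against R30E gave 2 in place of 1, HIF-2α against HIF-1α in batch 1 gave 2 in place of 1, and the batch difference of HIF-2α gave 1 (CDKN1B) in place of 0. DESeq2 gave 2 for HIF-1α against R30E and 2 for HIF-2α against HIF-1α, and no filter and total counted reads each gave 2 for HIF-1α against R30E. With only the groups compared, R27E against WT gave 0 in place of 1. Leaving out 1 library gave 0 to 0 for HIF-2αDM against WT, 1 to 2 for the HIF-2α KIN clone, 1 to 2 for HIF-1α against HIF-1αDM and 3 to 6 for the structured-domain effect. The causes were not tested. The block changed no call beyond these counts among comparisons whose numbers pair. Over members and settings, 2707 values kept their side of the threshold, 35 newly passed and 78 no longer passed. Total counted reads shifted every batch 1 HIF-2α against WT log2 fold change by -0.21. Depth limits CDKN1C, with 15 counts over 3 WT libraries in batch 1 and 4 in batch 2, and CCND2.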

Other observations

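In batch 2 the fold change of MYCL from WT was 2.31 in the HIF-1α line and 2.29 in HIF-2α/1α, against 0.903 in the HIF-2α line and 0.32 in HIF-1α/2α, and its IDR effect on the log2 scale was -2.10 (adjusted p = 8.84e-11, edgeR). The fold change of MXD3 was 2.31 in the HIF-2α line and 2 in HIF-1α/2α, against 1.27 in HIF-2α/1α, and its IDR effect was 0.87 (adjusted p = 4.32e-19). MYCN, named after its values were seen, had counts of 0, 0 and 0 in WT, 0, 0 and 0 in the HIF-1α line, 16, 13 and 6 in HIF-2α/1α, 6, 13 and 16 in the HIF-2α line and 0, 7 and 8 in HIF-1α/2α. CDKN2C had log2 fold changes from WT of 0.35 in HIF-2α/1α and 0.26 in HIF-1α/2α, and both its IDR effect (0.22, adjusted p = 2.77e-05) and its structured-domain effect (0.30, adjusted p = 2.39e-07) passed. For CDKN2D the IDR effect passed (0.32, adjusted p = 6.75e-05), and its structured-domain effect was 0.18 (adjusted p = 0.0441). RRM2B had an IDR effect of 0.09 (adjusted p = 0.29) and a structured-domain effect of 0.29 that passed (adjusted p = 1.61e-04).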
